A study of Mus musculus with 28 samples.

Results

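Krt6a, Krt6b, Krt16 and Krt17 encode the keratins that keratinocytes add to their filaments after injury. They were chosen by name, and all 4 are present among the 29068 gene symbols of the count table and passed the filter on low counts, as did 18107 genes in all. The 28 libraries were made from back skin of MLKL+/+ mice of the C57BL/6J strain, and the labels give every library, Day0 included, the treatment of natural wound healing. There were 4 libraries at each of 7 time points (Day0, Day3, Day5, Day7, Day10, Day12 and Day14), and Day0 is the control in the labels, although the study's methods name day 1, and no day 0, as the first on which skin was taken, so whether Day0 skin was wounded is not settled here. A round punch wound down to the fascia was made after shaving, in mice 8 weeks old and of both sexes. The whole wound with its scab and epithelial edge was taken, so each library mixes epidermis with dermis, blood cells, follicles and underlying muscle. Mice were killed on the day of sampling, but nothing states that the 4 libraries of a day are 4 separate mice, so that the p-values below measure the spread between these samples.

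Keratins form filaments as pairs of a type I (acidic) and a type II (basic) chain. In resting epidermis basal keratinocytes make Krt5 with Krt14, and cells that leave the basal layer replace these by Krt1 with Krt10. At the edge of a wound, keratinocytes switch on the type II keratins Krt6a and Krt6b and the type I keratins Krt16 and Krt17, and these are widely used as signs of an activated, migrating epidermis. Intact skin is not free of them, because Krt17 and Krt6a are also made in the outer root sheath and companion layer of hair follicles.

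The genes lie as neighbouring pairs in the type II and type I keratin clusters. In mm10 (GRCm38), the build named in the submitters' processing notes, with GENCODE M21 gene models, Krt6a (ENSMUSG00000058354.7) is at chr15:101689910-101694307 and Krt6b (ENSMUSG00000023041.7) at chr15:101676023-101680287, 9622 bases apart and both with 9 exons on the minus strand. Krt16 (ENSMUSG00000053797.10) is at chr11:100246091-100248902 and Krt17 (ENSMUSG00000035557.9) at chr11:100256217-100261029, 7314 bases apart and both with 8 exons on the minus strand. The coding sequences of Krt6a and Krt6b were identical at 97.8% of aligned bases, with a run of 280 bases without a difference, whereas those of Krt16 and Krt17 were identical at 75.8% and any type I with any type II member at 57.3% to 58.2%.

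The stretches of 60 coding bases at which each pair of neighbours differs most are printed here. A read that covers any other differing base can also be told apart. Bases are 5′ to 3′ on the coding strand, capitals mark the bases that differ from the neighbour, and all come from the mm10 genome.
Krt6a, chr15:101692484-101692543, exon 4, coding bases 817 to 876: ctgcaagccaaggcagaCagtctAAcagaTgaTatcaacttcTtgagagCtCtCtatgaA
Krt6b, chr15:101678303-101678362, exon 4, coding bases 817 to 876: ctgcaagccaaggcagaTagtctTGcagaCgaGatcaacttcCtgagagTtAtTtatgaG
Krt16, chr11:100248555-100248614, exon 1, coding bases 277 to 336: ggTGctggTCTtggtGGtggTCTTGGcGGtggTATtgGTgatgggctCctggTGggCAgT
Krt17, chr11:100260717-100260776, exon 1, coding bases 190 to 249: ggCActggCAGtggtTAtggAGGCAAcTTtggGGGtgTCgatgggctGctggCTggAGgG
Even in its most divergent stretch, Krt6a differed from Krt6b at 10 of 60 bases, against 26 of 60 for Krt16 and Krt17.

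Over the whole transcripts, 29.5% of the 100-base stretches of Krt6a occur unchanged in Krt6b and 30.1% of those of Krt6b in Krt6a. When other annotated genes were included, the share rose to 47.5% for Krt6a, 30.6% for Krt6b and 24.3% for Krt16 (mostly in Gm11597), and it was 0 for Krt17. How reads that match several genes were assigned is not given in the sources used here, so the separate values of Krt6a and Krt6b are uncertain and those of Krt16 to a lesser degree. The counts did keep the genes apart where their levels differed, since Day0 replicate 2 had 23 counts for Krt6b beside 1296 for Krt6a. The copies Gm49428 and Gm5414 had at most 77 and 47 counts in any library. No counts are available for the other matching genes Gm11597, Gm5478, Gm44342 and Gm44383, so the main match of Krt16 could not be checked.

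The libraries held 36706513 to 40655764 counts on genes, and the 4 members together took 0.0458% to 0.0687% of these on Day0 and 0.230% to 0.284% on Day3. Keratinocyte markers, as a check of the label skin, were present in every library (8 of 8 genes), with a summed level of 3903 to 8342 CPM (counts scaled to a common library size). Other cell types moved with time. Neutrophil markers (5 genes) summed to 15.9 to 41.7 CPM on Day0 and 4312 to 5452 CPM on Day3, with Retnlg at 0 in 1 library. From Day10 to Day12, the step at which Krt6b and Krt16 fell most, neutrophil markers went from 219 to 244 CPM down to 18.7 to 22.1 CPM, and their part in that fall was not tested. Macrophage markers (5 genes) went from 1500 to 2429 CPM on Day0 to 4331 to 4506 CPM on Day3, and skeletal muscle markers (5 genes) from 16376 to 27456 CPM down to 3648 to 4741 CPM. Adipocyte markers (4 genes) summed to 1253 to 1600 CPM on Day0 and 1171 to 1352 CPM on Day3. Replicates 1 and 4 of Day0 stood apart from replicates 2 and 3, with keratinocyte markers at 7736 and 8342 against 4710 and 4909 CPM, fibroblast markers (6 genes) at 24995 and 14282 against 55953 and 53716 CPM, and neutrophil markers at 41.7 and 37.9 against 15.9 and 16.7 CPM. Because all comparisons with Day0 share these 4 libraries, a fold change of a member printed below that loses its call or direction, or moves by over 1.5 times in fold, without one of them is also given without that library.

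Krt6a, Krt6b and Krt16 behaved alike in outline and Krt17 did not. The 3 were low and uneven on Day0, at their highest mean on Day3, still high on Day10 and far lower on Day12. Krt17 was abundant from the start, changed little up to Day10 and reached its highest level on Day14. In bulk tissue, more cells making a keratin and more of its RNA per cell cannot be told apart.

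**Figure D1:**
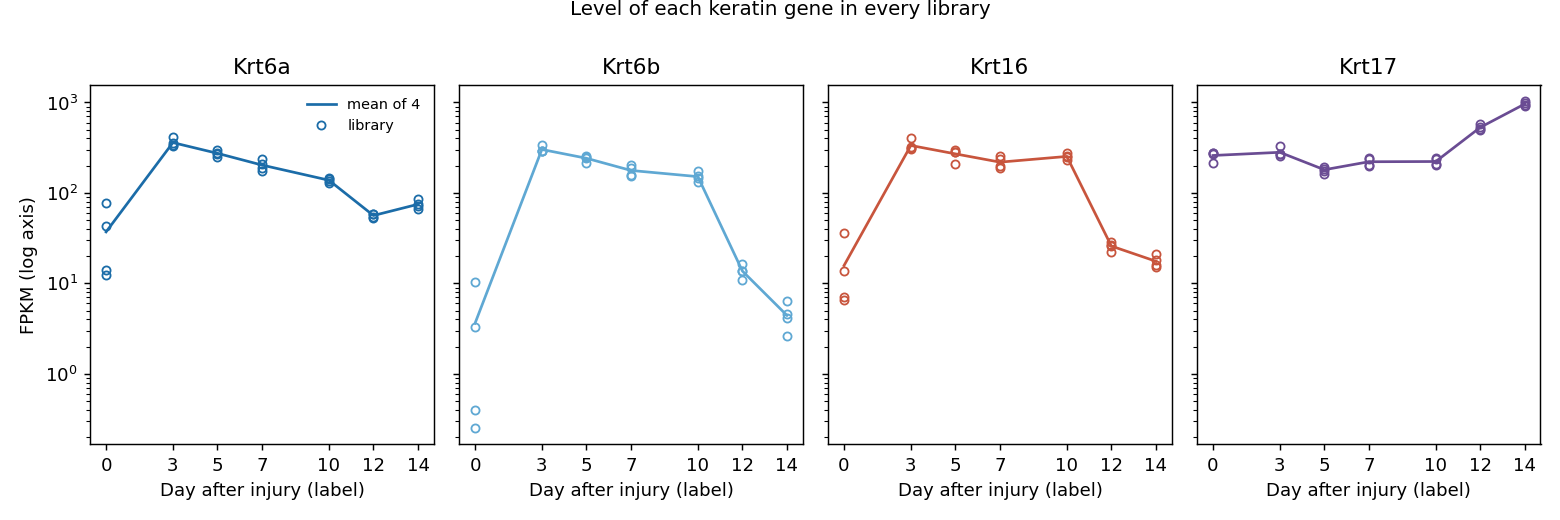
Each panel plots 1 keratin gene, with the labelled day after injury on the x axis and the FPKM of every library (circles, 4 a day) on a logarithmic y axis, and a line through the daily means. Krt6a, Krt6b and Krt16 sit high from Day3 to Day10 with widely scattered Day0 libraries, while Krt17 climbs from a Day10 mean of 223 to a Day14 mean of 964 FPKM.

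Krt6a is a type II keratin induced in activated epidermis. It had the higher measured level of both type II members on every day but Day10, though the split of their shared reads is uncertain. Its level in FPKM (the deposited measure per gene length and library total) was 78.1, 14.2, 12.5 and 43.6 in the 4 Day0 libraries. It was 412, 341, 330 and 357 on Day3, so that the lowest Day3 library was above the highest Day0 library. The mean then declined from 360 ± 36.5 on Day3 (SD, n = 4) to 274 ± 18.9 on Day5, 203 ± 25.9 on Day7 and 138 ± 8.24 on Day10, with no overlap between the libraries of successive days. On Day12 the libraries had 53.5, 58.9, 58.0 and 54.8, and on Day14 they had 65.9, 72.3, 85.6 and 76.1. Both days lay within or near the Day0 range of 12.5 to 78.1.

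Krt6b is the near-identical neighbour of Krt6a and, unlike it, is scarcely made in resting skin. It had 10.5, 0.253, 0.398 and 3.34 FPKM in the Day0 libraries, a 41.6-fold spread that came from 923, 23, 35 and 275 counts. On Day3 its level was 339, 290, 289 and 291 FPKM. The mean was 302 ± 24.7 on Day3, 241 ± 19.1 on Day5, 177 ± 24.4 on Day7 and 151 ± 16.6 on Day10. It then fell to 10.8, 13.7, 16.6 and 13.7 FPKM on Day12 and to 2.64, 4.60, 6.35 and 4.13 FPKM on Day14. Day14 was back inside the Day0 range, and Day12 lay just above it.

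Krt16, the type I partner of the Krt6 chains, had 35.7, 6.50, 7.06 and 13.7 FPKM on Day0 and 401, 323, 311 and 304 FPKM on Day3. Its mean was 335 ± 44.9 on Day3, 270 ± 42.8 on Day5 and 219 ± 31.5 on Day7, and it was 253 ± 17.6 on Day10, when Krt6a had already lost ground. The libraries of Day5, Day7 and Day10 overlapped in their Krt16 level. Day12 had 22.2, 26.6, 28.7 and 26.0 FPKM and Day14 had 15.1, 18.2, 21.0 and 16.0 FPKM, all inside the Day0 range.

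Krt17, which in mouse skin is a follicle keratin as well as a wound keratin, had 278, 272, 275 and 213 FPKM on Day0. It had 334, 256, 268 and 267 FPKM on Day3 and 177, 163, 186 and 196 FPKM on Day5, the only day on which all 4 libraries were below all of Day0. Day7 and Day10 were similar to each other, at 221 ± 21.7 and 223 ± 20.8 FPKM. The level was 496, 577, 509 and 542 FPKM on Day12 and 936, 981, 1031 and 908 FPKM on Day14. The lowest library of Day14 was far above the highest of any day up to Day10.

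These levels make the mixture of the 4 transcripts change over time. FPKM is scaled by gene length, which allows genes to be compared, but reads that match several genes limit this. How such reads were assigned is not given, so the shares of Krt6a, Krt6b and Krt16, and with them that of Krt17, are uncertain. Krt17 made up 83.2% ± 11.9 of the summed FPKM of the members on Day0 (69.1% to 93.2% over the 4 libraries). From Day3 to Day10 no member dominated, and Krt17 took 22.0%, 18.7%, 27.0% and 29.0% in turn. On Day12 and Day14 Krt17 took 84.7% ± 1.04 and 90.9% ± 0.753. The sum of the 4 went from 316 FPKM on Day0 to 1279 on Day3, down to 627 on Day12 and up to 1061 on Day14. A similar total on Day3 and Day14 thus had a different make-up, with Krt6a, Krt6b and Krt16 at 28.2%, 23.7% and 26.2% on Day3 and at 7.06%, 0.413% and 1.65% on Day14.

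**Figure D2:**
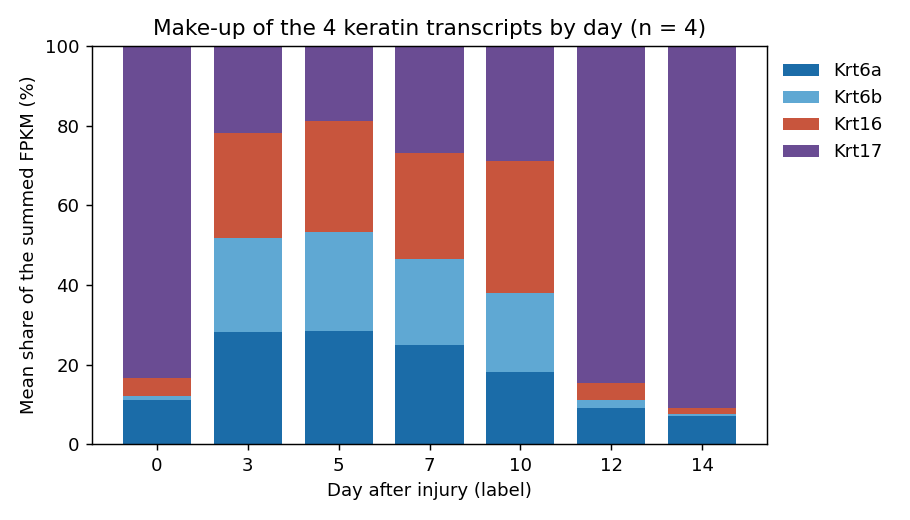
Stacked bars give the mean share, in percent (n = 4 libraries), of Krt6a, Krt6b, Krt16 and Krt17 in their summed FPKM on the y axis for each labelled day on the x axis. Krt17 fills 83.2% of the bar on Day0 and 90.9% on Day14, and 18.7% to 29.0% between Day3 and Day10.

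Each later day was compared with Day0 to ask how the wound keratins differed from the control, by edgeR's quasi-likelihood test on the counts with Benjamini-Hochberg adjustment over the 18107 genes. On Day3, 3 of the 4 members were higher at an adjusted p under 0.05 and none was lower, when 31.8% of all genes tested were higher and 34.8% lower. By the criterion of a log2 fold change over 1.5 with an unadjusted P under 0.05, 3 of 4 were higher, against 6.50% of all genes. Krt6a was 10.1-fold higher on Day3 (log2 fold change 3.33 ± 0.34 SE, adjusted p = 1.3e-09). Krt6b was 86.3-fold higher (6.43 ± 0.59, adjusted p = 1.6e-10). Krt16 was 22.1-fold higher (4.46 ± 0.34, adjusted p = 4.0e-12). The size of these folds rests on low and uneven Day0 counts, above all for Krt6b. Without Day0 replicate 1 the log2 fold changes on Day3 were 4.05 for Krt6a, 7.97 for Krt6b and 5.32 for Krt16, and over the 8 fits that each left out 1 library they ran from 3.05 to 4.05, 6.04 to 7.97 and 4.21 to 5.32. The median over all genes tested was -0.03 on the same scale.

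The same 3 genes were higher on Day5, Day7 and Day10, with 29.0%, 25.6% and 23.5% of all genes higher on these days. Krt6a had log2 fold changes of 2.92, 2.44 and 1.84, Krt6b of 6.09, 5.60 and 5.32, and Krt16 of 4.14, 3.79 and 3.95, with adjusted p between 2.1e-11 and 2.2e-05 in edgeR's quasi-likelihood test. Without Day0 replicate 1 these became 3.61, 3.12 and 2.51 for Krt6a, 7.59, 7.09 and 6.81 for Krt6b and 4.96, 4.60 and 4.76 for Krt16. By the size criterion they also passed on all 3 days, beside 5.61%, 4.66% and 4.33% of all genes. On each day from Day3 to Day10 all 4 libraries were above all 4 Day0 libraries for these genes. That is the most extreme arrangement, and the exact permutation test (two-sided, on log2 CPM) gave its smallest possible p of 0.0286 (adjusted p = 0.0457 over 24 tests) each time.

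On Day12 Krt6a, Krt6b and Krt16 were closer to Day0 than on Day10. Of the members, 2 were higher, Krt6b and Krt17, when 21.7% of all genes were higher and 25.6% lower, and by the size criterion 1, Krt6b, against 3.89% of all genes. Without composition normalization, which raised the listed genes by a median log2 of 0.14 on Day12 and 0.13 on Day14, 67.4% of the genes called on Day12 were higher instead of 45.8%, and 56.2% instead of 45.0% on Day14. Krt6b was 3.40-fold higher (log2 fold change 1.77 ± 0.50, adjusted p = 0.005 in edgeR's quasi-likelihood test), but this did not pass with the 8 libraries compared alone (1.78, adjusted p = 0.151), and in the exact permutation test of log2 CPM, where 3 of 4 libraries were above all of Day0, p was 0.0571 (adjusted p = 0.0857). Leaving out 1 library, the Krt6b value ran from 1.38 to 3.27 and passed edgeR's test each time, the highest being without Day0 replicate 1. Krt6a (0.45 ± 0.31, adjusted p = 0.239) and Krt16 (0.57 ± 0.30, adjusted p = 0.127) did not pass edgeR's test. Without Day0 replicate 1, both passed it, at 1.14 (adjusted p = 2.5e-04) and 1.39 (adjusted p = 4.6e-07). Krt6a, at 53.5 to 58.9 FPKM, lay below Day0 replicate 1 and above the other Day0 libraries.

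On Day14, 2 members were higher, Krt6a and Krt17, when 28.2% of all genes were higher and 34.5% lower, and by the size criterion 1, Krt17, against 5.15% of all genes. Krt6a was 1.85-fold higher (0.89 ± 0.31, adjusted p = 0.015 in edgeR's quasi-likelihood test), though the libraries overlapped those of Day0 and the call did not hold with the 8 libraries compared alone (0.96, adjusted p = 0.143). Leaving out 1 library, the Krt6a value ran from 0.64 to 1.64 and passed each time, the highest again being without Day0 replicate 1. Krt6b (0.16 ± 0.51, adjusted p = 0.803) and Krt16 (0.03 ± 0.30, adjusted p = 0.932) did not pass edgeR's test. These also turned on Day0 replicate 1, without which edgeR gave Krt6b 1.72 (adjusted p = 6.2e-04) and Krt16 0.92 (adjusted p = 9.1e-05). The directions of both were lost as well, since their values fell to -0.19 and -0.18 without Day0 replicate 2, to -0.17 and -0.16 without Day0 replicate 3, and to -0.09 and -0.08 without Day14 replicate 3.

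Krt17 moved by far less up to Day10 and in other directions. On Day3 it was 1.13-fold of Day0 (0.17 ± 0.09, adjusted p = 0.099 in edgeR's quasi-likelihood test). That value passed at 0.26 without Day0 replicate 1, at 0.27 without Day3 replicate 2 and at 0.24 without Day3 replicate 3 or 4 (adjusted p 0.020 to 0.038 in edgeR's test). On Day5 it was 1.40-fold lower (-0.48 ± 0.09, adjusted p = 5.4e-05 in edgeR's test), and the exact permutation test gave p = 0.0286. It was also lower on Day7 (-0.23, adjusted p = 0.036) and Day10 (-0.28, adjusted p = 0.014) by edgeR's test, so that 1 of 4 members was lower on each of these 3 days, beside 30.6%, 24.8% and 26.9% of all genes. The libraries of Day7 and Day10 overlapped those of Day0. The Day7 call did not hold without Day0 replicate 1, 2 or 3 or Day7 replicate 1 or 3 (-0.21 to -0.18), nor the Day10 call without Day10 replicate 2 (-0.24).

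The late rise of Krt17 was the firmest of its changes. It was 1.85-fold higher on Day12 (0.89 ± 0.09, adjusted p = 9.2e-09 in edgeR's quasi-likelihood test) and 3.41-fold higher on Day14 (1.77 ± 0.09, adjusted p = 7.2e-15), with all 4 libraries above all of Day0 on both days (exact permutation test, p = 0.0286). Hair follicle markers (8 of 8 genes in the table, none at 0 in any library) moved at the same time. They summed to 267 to 2246 CPM on Day0, 7.77 to 14.3 on Day3, 13.4 to 21.7 on Day5, 1325 to 1796 on Day7, 322 to 366 on Day10, 4782 to 6268 on Day12 and 4396 to 5915 on Day14. Between Day10 and Day14, keratinocyte markers also went from 4814 to 5491 CPM up to 6512 to 7605 CPM, and fibroblast markers from 52424 to 59638 CPM down to 15973 to 19138 CPM. The part of these cell types in the Krt17 result was not tested.

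**Figure D3:**
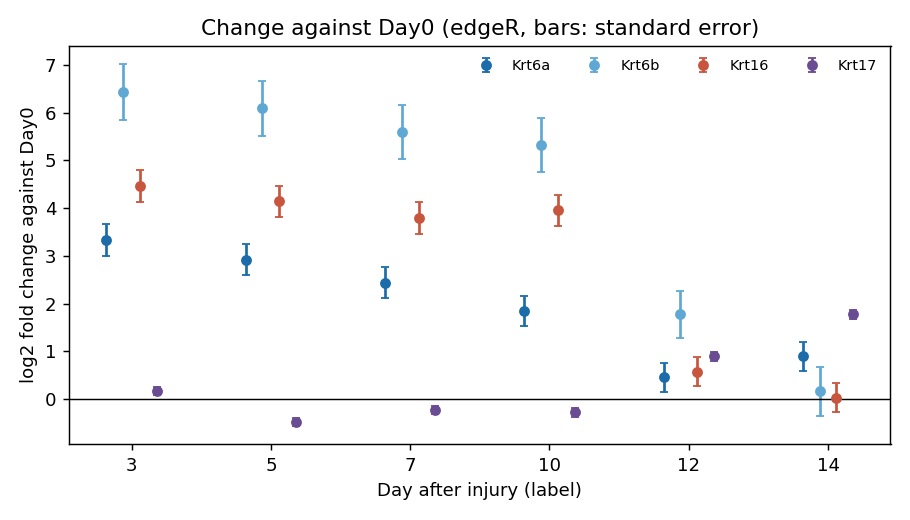
Points give the log2 fold change of each member against Day0 on the y axis by labelled day on the x axis, from edgeR on 28 libraries, with bars for the standard error. Krt6b reaches 6.43 on Day3 and 0.16 on Day14, and Krt17 stays between -0.48 and 0.17 up to Day10 before rising to 1.77.

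Successive days were compared to see where along healing each gene rose or fell. The steepest step of Krt6b and Krt16 after Day3 was between Day10 and Day12. Krt6b fell 11.8-fold (-3.56 ± 0.51, adjusted p = 1.9e-06 in edgeR's quasi-likelihood test), Krt16 fell 10.4-fold (-3.38 ± 0.32, adjusted p = 1.8e-09) and Krt6a fell 2.61-fold (-1.39 ± 0.31, adjusted p = 7.9e-04), while Krt17 rose 2.24-fold (1.16 ± 0.09, adjusted p = 7.4e-11). Thus 3 of 4 members fell and 1 rose, beside 20.7% of all genes lower and 18.7% higher (63.7% of the genes called were higher without composition normalization, against 47.5% with it). Between Day12 and Day14, Krt17 rose another 1.84-fold (0.88 ± 0.09, adjusted p = 1.6e-08) and Krt6b fell 3.04-fold (-1.60 ± 0.50, adjusted p = 0.010), 1 of 4 members each way beside 19.9% of all genes higher and 25.3% lower.

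The earlier steps were smaller. In the fit of all 28 libraries, edgeR called only Krt17 among the members, which fell 1.57-fold from Day3 to Day5 (-0.66 ± 0.09, adjusted p = 4.8e-06) when 11.4% of all genes fell, and rose 1.19-fold from Day5 to Day7 (0.25 ± 0.09, adjusted p = 0.042) when 13.9% rose. The second of these did not hold without Day5 replicate 1, 2 or 3 or Day7 replicate 2 or 4 (0.19 to 0.25). No member passed between Day7 and Day10, when 14.3% of all genes rose and 18.0% fell. Without composition normalization, 58.9% of the genes called between Day5 and Day7 rose instead of 48.8%, and 55.5% instead of 44.2% between Day7 and Day10. Upper quartile normalization gave 60.4% for the first step and 54.7% for the second. This fit estimates 1 spread per gene over all days, and for Krt6a, Krt6b and Krt16 the Day0 libraries are the most spread, with a coefficient of variation of FPKM of 83.2%, 133% and 87.1% on Day0 and of 10.1% for Krt6a on Day3.

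With the 24 libraries of Day3 to Day14 alone, a fit chosen after seeing the data, the gradual decline of these 3 genes passed edgeR's test. From Day3 to Day5, 4 of 4 members fell, beside 15.3% of all genes, by log2 values of -0.41 for Krt6a, -0.34 for Krt6b, -0.32 for Krt16 and -0.65 for Krt17 (adjusted p from 7.1e-08 to 0.047). From Day5 to Day7, Krt6a, Krt6b and Krt16 fell again (-0.48, -0.49 and -0.35, adjusted p from 1.5e-05 to 0.011) beside 17.9% of all genes, and Krt17 rose beside 17.5%. From Day7 to Day10 only Krt6a among the members fell (-0.60, adjusted p = 2.8e-07), beside 21.4% of all genes. The values of Krt16 (0.16, adjusted p = 0.254) and Krt6b (-0.28, adjusted p = 0.093) did not pass, when 18.1% of all genes rose. From Day10 to Day12 the other 3 members fell and Krt17 rose in this fit as well, beside 24.1% of all genes lower and 21.5% higher. From Day12 to Day14, Krt6a rose (0.43, adjusted p = 4.5e-05) together with Krt17, beside 22.8% of all genes, while Krt16 (-0.54, adjusted p = 3.0e-04) and Krt6b fell, beside 28.7%.

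Ordered by mean FPKM, Krt6a ran Day3, Day5, Day7, Day10, Day14, Day12, Day0, and Krt6b ran Day3, Day5, Day7, Day10, Day12, Day14, Day0. Krt16 ran Day3, Day5, Day10, Day7, Day12, Day14, Day0. Krt17 ran Day14, Day12, Day3, Day0, Day10, Day7, Day5. Neighbours in these orders whose libraries overlapped were Day12 and Day0 for Krt6a, Day7 and Day10 and also Day14 and Day0 for Krt6b, Day5, Day10 and Day7 and also Day14 and Day0 for Krt16, and Day3, Day0, Day10 and Day7 for Krt17. All 4 members varied over Day3 to Day14 in edgeR's joint quasi-likelihood test (F of 24.7 for Krt6a, 37.5 for Krt6b, 60.7 for Krt16 and 200 for Krt17, adjusted p 1.1e-08 at most), as did 85.1% of all genes tested.

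Ratios of counts within a library do not depend on normalization and compare the members with each other directly. Per count of Krt6a there were 0.134, 0.0181, 0.0321 and 0.0762 counts of Krt6b in the 4 Day0 libraries. The ratio was 0.810 to 0.868 on Day3 and 1.01 to 1.20 on Day10, and it then dropped to 0.200 to 0.284 on Day12 and 0.0399 to 0.0737 on Day14. All Day3 libraries were above all Day0 libraries, by 16.9-fold in the geometric mean (exact permutation test, p = 0.0286, adjusted p = 0.0371 over 48 ratio tests). On Day14 the ratio overlapped that of Day0 (exact permutation test, p = 0.800). The pair of near-identical genes thus had similar counts from Day3 to Day10 (ratios of 0.796 to 1.20) and unequal counts on Day0, Day12 and Day14.

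Krt16 per count of Krt17, the type I neighbours, was 0.0242 to 0.130 on Day0, 1.15 to 1.27 on Day3, 1.10 to 1.20 on Day10, 0.0452 to 0.0569 on Day12 and 0.0163 to 0.0206 on Day14. It was above all Day0 libraries from Day3 to Day10 by 20.7-fold to 31.3-fold and below all of them on Day14 by 2.62-fold (exact permutation tests, adjusted p = 0.0371 each). Krt16 per count of Krt6a rose 2.11-fold to 4.17-fold between Day3 and Day10, from a geometric mean of 0.305 on Day0 to 0.644 on Day3 and 1.27 on Day10, and was 0.162 on Day14, all separate from Day0 (adjusted p = 0.0371, exact permutation tests). The chains of different type thus kept no fixed proportion. Krt17 per count of Krt6a was 0.433 to 0.560 on Day3 and Day5, against 2.44 to 15.2 on Day0, and its values of 6.04 to 6.79 on Day12 and 8.21 to 9.78 on Day14 lay inside the Day0 range.

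Krt5 and Krt14, the pair of basal keratinocytes, served as a common measure for the epidermis. Per count of Krt5 plus Krt14 there were 0.0123 to 0.0384 counts of Krt6a on Day0, 0.264 to 0.288 on Day3, 0.0817 to 0.0872 on Day10 and 0.0408 to 0.0429 on Day14. Krt6a was above all Day0 libraries on every later day on this measure, from 14.4-fold on Day3 to 2.21-fold on Day14 (exact permutation tests, adjusted p = 0.0371). Krt6b was 243-fold higher on Day3 and 11.1-fold on Day12, and Krt16 was 30.4-fold higher on Day3 and 2.40-fold on Day12, all separate from Day0 with the same adjusted p, while neither was on Day14 (exact permutation p of 0.286 and 0.629). The log2 differences of Krt6b, 7.92 on Day3 and 3.48 on Day12, became 8.74 and 4.30 without Day0 replicate 1 and 7.32 and 2.87 without Day0 replicate 2. Krt17 had 0.0637 to 0.194 counts per count of Krt5 plus Krt14 on Day0 and 0.143 to 0.150 on Day3. It overlapped Day0 up to Day10 and was 2.34-fold higher on Day12 and 3.08-fold higher on Day14 (exact permutation tests, adjusted p = 0.0371). With Krt5 alone as the partner, Krt6a on Day14 (a log2 difference of 1.10) and Krt16 on Day12 (1.28) no longer passed, and Krt17 on Day3 did (0.86, adjusted p = 0.0381, exact permutation test).

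**Figure D4:**
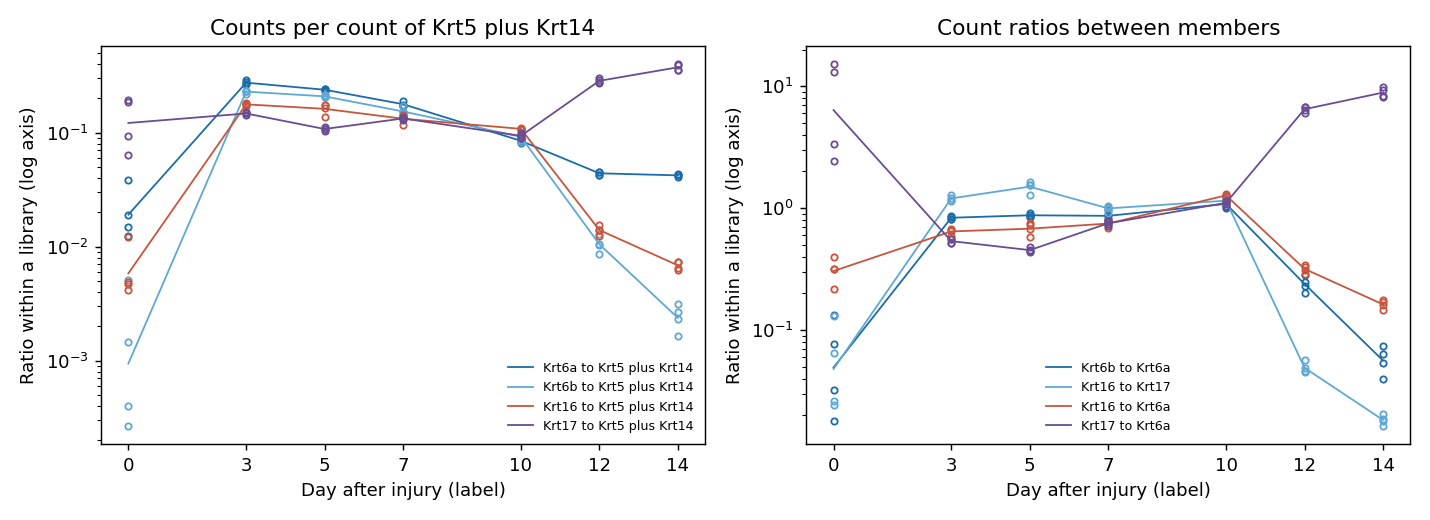
Circles are count ratios within single libraries on a logarithmic y axis by labelled day on the x axis, with lines through the geometric means; the left panel divides each member by Krt5 plus Krt14, and the right panel divides members by each other. Krt6b to Krt6a goes from a geometric mean of 0.0494 on Day0 to 1.08 on Day10 and 0.0562 on Day14, and Krt17 to Krt5 plus Krt14 ends highest, at 0.374.

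Among libraries of the same day, the 3 wound-induced genes varied together. As deviations of log2 CPM from the day mean over 28 libraries, Krt6a and Krt6b had a Pearson r of 0.97 and a Spearman rho of 0.85 (adjusted p of 0.002 and 1.8e-04 over 6 pairs, 100000 permutations within days). Krt6a with Krt16 had r of 0.94 and rho of 0.88, and Krt6b with Krt16 r of 0.94 and rho of 0.90 (adjusted permutation p of 3.3e-04 and 6.0e-05 for r). Without the 2 libraries farthest from the median, r was 0.95, 0.86 and 0.83. Krt17 had r of 0.04 with Krt6a, -0.01 with Krt6b and 0.26 with Krt16, and none passed (adjusted permutation p of 1.000, 1.000 and 0.658), while its rho was 0.48, 0.39 and 0.54 (adjusted permutation p of 0.036, 0.074 and 0.016). Without these farthest libraries its r was -0.03, -0.12 and 0.34. The Day0 libraries decided this difference. In the 24 libraries of Day3 to Day14, r with Krt17 was 0.81 for Krt6a, 0.53 for Krt6b and 0.81 for Krt16 (adjusted permutation p of 3.0e-04, 0.006 and 3.1e-04), and r among the other 3 was 0.75 to 0.84.

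Genes whose log2 CPM followed each member most closely over the 28 libraries were found by Pearson r, as a description, since all points share the same time course. The closest to Krt6b were Sprr1b, a cornified envelope precursor, with r of 0.990, Spp1, which encodes osteopontin, with 0.989, Lce3c, a late envelope gene, with 0.981, Krt16 with 0.980 and Gpr176 with 0.978. The closest to Krt16 were Lce3b and Krt6b with 0.980, Lce3c and Stfa1 with 0.979 and Spp1 with 0.977. Krt6a was followed by 2610528A11Rik with 0.978, Gla and the myeloid lectin Clec4d with 0.975, and Apln and Tubb6 with 0.970, ahead of Krt6b with 0.947 and Krt16 with 0.929. Krt17 was followed by Sdc1, the cell surface proteoglycan syndecan-1, with 0.976, the gap junction gene Gja1 with 0.974, Hnrnpr and the ephrin receptor gene Epha2 with 0.956 and Vps36 with 0.953. Its r with Krt6a, Krt6b and Krt16 was -0.417, -0.568 and -0.644. The closest genes of Krt6b and Krt16 thus included genes of the cornified envelope, Spp1 and each other. Neither those of Krt6a nor those of Krt17 included another member. Lce3b and Lce3c were scarce, with 0 to 0.132 and 0.130 to 0.819 CPM on Day0. Their levels on Day3 were 7.86 to 10.7 and 8.96 to 12.4 CPM.

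No keratin of the 3 other keratin lists was higher on Day3 or Day5 with all libraries, although Krt14 and Krt1 passed without Day0 replicate 1 or 4, as given below. Leaving out libraries was added for the lists after seeing the data. No gene of the lists that was called changed direction under any of the 3 other scalings tried. Of 8 basal and suprabasal epidermal keratins, none was higher and 7 were lower on Day3 (median log2 fold change -1.66, against -0.03 over all genes tested, of which 34.8% were lower), and 1 was higher and 6 lower on Day7, 1 and 5 on Day10, 1 and 4 on Day12, and 1 and 5 on Day14, beside 25.6%, 23.5%, 21.7% and 28.2% of all genes higher and 24.8%, 26.9%, 25.6% and 34.5% lower. The number higher was 2 on Day10, Day12 and Day14 without Day0 replicate 4, and on Day10 without replicate 1. With all libraries, the higher gene was Krt1, the suprabasal partner of Krt10, on Day7 (0.78, adjusted p = 2.6e-06), Day10 (0.53, adjusted p = 3.9e-04) and Day12 (0.57, adjusted p = 2.0e-04, edgeR's quasi-likelihood test), after a lower level on Day3 (-0.91) and 0.31 and 0.34 on Day5 without Day0 replicate 1 and 4, both of which passed. On Day14 it was Krt2 (2.21, from a Day0 mean of 0.561 CPM), and both are named after their values were seen. With all libraries Krt14 did not pass on any day (0.36 on Day3, adjusted p = 0.099, edgeR's quasi-likelihood test). It passed on Day3 at 0.59 without Day0 replicate 1 and at 0.65 without replicate 4, on Day5 at 0.47 without replicate 4, on Day10 at 0.54 and 0.59 without replicate 1 and 4, and in the other direction on Day12 at -0.61 and -0.62 without replicate 2 and 3. Its type II partner Krt5 was lower on Day3 (-0.77, adjusted p = 1.7e-04) and did not pass on Day14 (0.11, adjusted p = 0.593), where it was -0.02 without Day0 replicate 2 and passed at 0.42 without replicate 4. The suprabasal keratins Krt10 and Krt77 changed by -2.06 and -2.10 on Day3, and Krt15, a keratin of resting basal and bulge cells, by -3.46.

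Keratins of the companion layer, sebaceous duct and simple epithelia (7 genes) were all lower on Day3 (median -2.03). Of all genes tested, 34.8% were lower on that day, with a median of -0.03. On Day14, 4 of the 7 keratins were higher and 2 lower, beside 28.2% and 34.5% of all genes. Krt75, the companion layer keratin, was lower by -2.80 on Day3 and higher by 2.13 on Day14 (adjusted p of 2.6e-16 and 3.7e-14, edgeR's quasi-likelihood test), while Krt79 of the sebaceous duct was lower on both days (-2.04 and -0.53). Krt23 (-1.74 and -1.39) was likewise lower on both days. Krt8 and Krt19, of simple epithelia, were lower on Day3 (-3.76, or -5.30 without Day3 replicate 2, and -1.11) and higher on Day14 (2.38 and 0.87). Their levels were low throughout, at a mean of 0.868 and 2.18 CPM on Day0.

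Keratins of the hair shaft and inner root sheath (20 genes) were lower early and higher late. On Day3 19 of 20 were lower (median -6.81, or -5.77 without Day0 replicate 1) and on Day5 all 20, beside 34.8% and 30.6% of all genes, while 5 were higher and none lower on Day7, near the 25.6% of all genes that were higher, 16 were lower on Day10, beside 26.9% of all genes, and all 20 were higher on Day12 (median 2.80, or 3.71 without Day0 replicate 1) and Day14, beside 21.7% and 28.2% of all genes. The Day7 count was 18 without Day0 replicate 1 and 3 without Day0 replicate 2 or 3 or Day7 replicate 2, and on Day10 4 were higher without Day0 replicate 1. Krt71, Krt25 and Krt27 of the inner root sheath changed by -6.69, -6.66 and -6.90 on Day3 and by 2.27, 2.53 and 1.28 on Day14, and Krt85 of the hair shaft by -6.71 and 4.43. Their Day0 levels were uneven, and without Day0 replicate 1 the 4 genes changed by -5.80, -5.69, -6.11 and -5.74 on Day3 and by 3.19, 3.52, 2.10 and 5.43 on Day14. Krt26 had the largest fall of the list on Day3 (-8.46, from 13.1 to 0.0341 CPM). Of the 8 hair follicle markers above, 6 are in this list.

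Most genes known to be switched on in activated keratinocytes were higher from Day3 to Day10. Of 24 listed genes 23 were in the table and tested, and 19 were higher and 3 lower on Day3 (median 2.98), 19 and 3 on Day5, 19 and 2 on Day7, 17 and 4 on Day10, 10 and 4 on Day12 and 8 and 7 on Day14 (median 0.27). Of all genes, 31.8%, 29.0%, 25.6%, 23.5%, 21.7% and 28.2% were higher on these days in turn and 34.8%, 30.6%, 24.8%, 26.9%, 25.6% and 34.5% lower, and the counts of the list lay near these shares on Day14. The Day14 median changed sign without Day0 replicate 3 (-0.08) or Day14 replicate 3 (-0.09). The number lower was 1 on Day3 without Day0 replicate 1 or 4 or Day3 replicate 2, and 1 on Day7 without Day0 replicate 1 or 4 or Day7 replicate 3. The alarmin subunits S100a8 and S100a9 were higher by 7.94 and 7.88 on Day3, and both are also in the list of neutrophil markers, whose part in the result was not tested. Sprr2d, an envelope precursor, had the largest rise (8.24, from 0.498 to 151 CPM), and the iron-binding defence protein Lcn2 rose by 6.71. Which cells of the bulk tissue made Lcn2 or the other listed genes was not tested. The gap junction gene Gjb2 rose by 2.13 on Day3 and 3.91 on Day14 (4.51 without Day0 replicate 1). Involucrin (Ivl), a marker of late differentiation, fell by 1.23 on Day3 and did not pass on Day7 (0.07, adjusted p = 0.785, edgeR's quasi-likelihood test, and -0.17 without Day0 replicate 4).

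Signals and transcription factors known to act on these keratin genes were mostly higher on Day3. Of 20 listed genes 19 were tested, and 15 were higher and 2 lower on Day3 (median 1.16), 11 and 3 on Day5, 8 and 4 on Day7, 5 and 4 on Day10, 5 and 3 on Day12 and 4 and 8 on Day14. The shares of all genes were 31.8% higher and 34.8% lower on Day3, 29.0% and 30.6% on Day5, 25.6% and 24.8% on Day7, 23.5% and 26.9% on Day10, 21.7% and 25.6% on Day12 and 28.2% and 34.5% on Day14. From Day10 on both counts lay near these shares, as did the number lower on Day7. On Day12, 5 were lower without Day0 replicate 3. The cytokine Il1b rose by 6.00 on Day3, was still higher on Day10 (2.30) and was lower on Day14 (-2.73). Stat3 was higher on Day3 and Day5 (1.16 and 0.63) and did not pass on Day7 or Day10. Gli2, an effector of hedgehog signalling, was lower on Day3 (-1.72) and higher on Day14 (1.49), and the differentiation factor Klf4 was lower on every day, from -1.22 to -0.30.

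The desmosome and plakin genes, whose products anchor keratin filaments, mostly fell while Krt6a, Krt6b and Krt16 were high. Of 17 genes 2 were higher and 13 lower on Day3 (median -0.80), 1 and 13 on Day5, 1 and 14 on Day7, none and 15 on Day10, 1 and 4 on Day12 and 3 and 11 on Day14, beside 34.8% of all genes lower on Day3, 30.6% on Day5, 24.8% on Day7, 26.9% on Day10, 25.6% on Day12 and 34.5% on Day14. The number lower on Day12 lay near the 25.6%. Of all genes, 31.8%, 29.0%, 25.6%, 23.5%, 21.7% and 28.2% were higher on these days in turn. Without composition normalization, 4 were higher and 3 lower on Day12 (median 0.15, against 0.00 in the main fit). Without Day0 replicate 1, 3 were higher on Day12, and 5 were higher and 7 lower on Day14. Without Day0 replicate 4, 2 were higher and 2 lower on Day12, and 2 were higher on Day7 without Day0 replicate 2 or 3 and on Day12 without Day0 replicate 3. Dsp, which encodes desmoplakin, changed by -1.0 on Day3 and -1.48 on Day10. Dst, Plec and Pkp1 changed by -1.27, -0.41 and -0.73 on Day3, of which Plec did not pass without Day0 replicate 1 (-0.28) or 4 (-0.19). Dsg3 was higher on Day3 (0.55) and lower on Day10 (-1.0), and Dsg2 was lower on Day3 (-2.55) and higher on Day14 (0.68). Keratinocyte markers as a whole summed to 4404 to 5543 CPM on Day3 and 4710 to 8342 CPM on Day0.

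**Figure D5:**
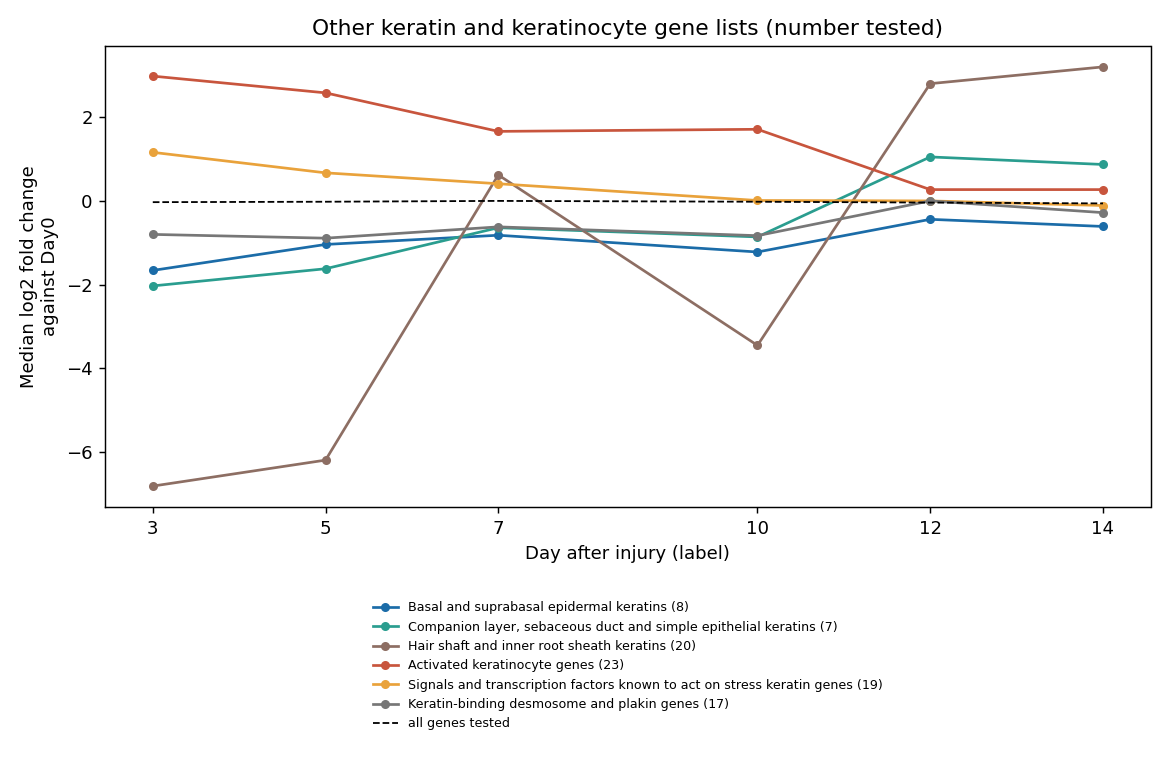
Lines join the median log2 fold change against Day0 (y axis, edgeR) of each gene list on each labelled day (x axis), with the number of genes tested in brackets and all 18107 genes as a dashed line. Activated keratinocyte genes are highest on Day3 at 2.98, while hair shaft and inner root sheath keratins go from -6.81 on Day3 to 2.80 on Day12 (-5.77 and 3.71 without Day0 replicate 1) and stay high on Day14.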

How the data were processed

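RNA of mouse back skin was measured by RNA sequencing in 28 libraries. Per the labels, reads came from VAHTS Universal V6 libraries, and fastp, mm10 and R 3.2.0 are named in the submitters' processing notes. The aligner, counting tool, annotation and strandedness are not given in the sources used here, and antisense or overlapping genes could share reads. The authors deposited raw counts per gene symbol without normalization. The authors also deposited FPKM values, which equal these counts divided by 1 fixed length per gene and the library total. Between 36706513 and 40655764 counts per library were deposited, and 0 counts allow up to 3.

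The count model was edgeR 4.0.16 in R 4.3.3, with TMM scaling, the filter filterByExpr and the two-sided tests of glmQLFit and glmQLFTest, in 1 fit of all 28 libraries by day with no covariates and 21 residual degrees of freedom. Adjusted p-values are Benjamini-Hochberg values over 18107 genes. A call was an adjusted p under 0.05, and the size criterion is the one of the study's methods. CPM values are scaled by TMM, and log2 CPM has a prior count of 2. Exact permutation tests compared 4 libraries with 4 (Python 3.11.15, scipy 1.17.1) and cannot go below 0.0286. Ratios had 0.5 added to each count. Alternatives were other normalizations and filters, DESeq2 1.42.0, limma 3.58.1 on log2(FPKM + 1) and log2(FPKM + 0.1), the 8 libraries compared alone, a replicate block, each library left out and, chosen after seeing the data, 24 libraries without Day0. Scripts were tested on simulated counts.

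The members, the gene lists and the cell type markers were chosen with earlier results of these data known. Genes named were the 4 members, the 4 most abundant genes of each list with those of largest rise and fall on Day3, the 5 genes most like each member, and Krt5 and Krt14. Krt1 and Krt2 were added after their values were seen, and 1 gene is not reported here. Gene models and sequences are from GENCODE M21. Il36g was not analysed here, and Ifng did not pass the filter. No 2 libraries of a day agreed within counting noise (lowest median chi-square 1.46 over 42 pairs, against 0.455 for counting noise).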

Additional observations from a re-analysis of the deposited data

Results flagged for a closer look

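Among 28 groups of 4 libraries, 1 for each member and day, 2 held a library far from the other 3, and chance alone would mark about 1 in 20 groups. Krt6b had a log2 CPM of 9.64 in Day3 replicate 1, while the other 3 libraries of that day had 9.43 to 9.46. Krt6a, Krt16 and Krt17 were also highest in that library among those of Day3, at 412, 401 and 334 FPKM. Krt17 had a log2 CPM of 8.40 in Day0 replicate 4, while the other Day0 libraries had 8.76 to 8.80. That library also had the lowest summed hair follicle markers of Day0 (267 CPM, against 691 to 2246 CPM) and the highest keratinocyte markers (8342 CPM), whose part in the value was not tested.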

How the results depend on the processing

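The rise of Krt6a, Krt6b and Krt16 on Day3, Day5, Day7 and Day10 kept direction and call under every normalization, filter, block and left-out library tried. So did the fall of Krt17 on Day5 and its rise on Day12 and Day14. The same held with every tool, except that DESeq2 made no call for Krt6b. It gave that gene no adjusted p in any of the 11 comparisons. Low counts limit Krt6b on Day0, and shared sequence limits the split of Krt6a and Krt6b. Causes of changes were not tested. Replicate numbers did not pair the samples (correlation of same-numbered deviations -0.07 to 0.05, 8 of 28 libraries closest to their own number). With the replicate block, counts of genes called were 0.976 to 1.01 times those without, and of 44 member comparisons 43 kept their call, the other being Krt17 between Day5 and Day7 (0.25, adjusted p = 0.056, edgeR's quasi-likelihood test).

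Against Day0, the alternatives that moved a call were few. With the 8 libraries compared alone, edgeR gave Krt17 -0.27 on Day7 and -0.26 on Day10, Krt6b 1.78 on Day12 and Krt6a 0.96 on Day14, none of which passed. limma on log2(FPKM + 1) and log2(FPKM + 0.1) gave Krt17 -0.22 and -0.22 on Day10, which did not pass, and Krt6a 0.97 and 1.01 and Krt16 0.99 and 1.07 on Day12, which did, as did Krt6b on Day14 with 1.44 under the smaller pseudocount. Without composition normalization Krt16 passed on Day12 with 0.72. Leaving out 1 library, the values ran from 0.14 to 0.27 for Krt17 on Day3, from -0.32 to -0.18 on Day7 and from -0.36 to -0.23 on Day10, from 0.17 to 1.14 for Krt6a and 0.32 to 1.39 for Krt16 on Day12, and from -0.19 to 1.72 for Krt6b and -0.18 to 0.92 for Krt16 on Day14. The reversals there were -0.19, -0.17 and -0.09 for Krt6b and -0.18, -0.16 and -0.08 for Krt16. In the exact test Krt6b on Day12 passed with log2(FPKM + 1), at 2.25.

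Between successive days, Krt6a, Krt6b and Krt16 passed with the 8 libraries alone at -0.41, -0.34 and -0.32 from Day3 to Day5 and at -0.47, -0.48 and -0.34 from Day5 to Day7, Krt6a and Krt6b at -0.59 and -0.27 from Day7 to Day10, and Krt6a and Krt16 at 0.46 and -0.51 from Day12 to Day14. Without the Day0 libraries the values that passed were -0.41, -0.34 and -0.32, then -0.48, -0.49 and -0.35, then -0.60 for Krt6a, and 0.43 and -0.54. Krt17 from Day5 to Day7 missed the threshold with DESeq2 size factors (0.24) and with no filter on low counts (0.25), and ran from 0.19 to 0.30 with 1 library left out. From Day7 to Day10 its value of -0.04, which did not pass, became 0.00 with upper quartile normalization and 0.01 without composition normalization, with both limma fits (0.01 and 0.01) and without Day7 replicate 4, in a range of -0.09 to 0.01.

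Ratios to Krt5 alone were 1.10 for Krt6a on Day14 and 1.28 for Krt16 on Day12, both no longer passing, 0.86 for Krt17 on Day3, now passing, and 0.51 for Krt17 on Day5, against the opposite sign for the sum. Ratios of Krt17 to Krt14 alone were -0.31 on Day3 and -0.41 on Day7, again of opposite sign, and did not pass. Without Day0, r of Krt17 with Krt6a, Krt6b and Krt16 was 0.81, 0.53 and 0.81.

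By the size criterion, fewer genes were called. In the order Day3, Day5, Day7, Day10, Day12 and Day14 against Day0, they were 1177, 1015, 843, 784, 704 and 933 higher and 2243, 1505, 859, 931, 635 and 1598 lower. In the order of successive days from Day3, they were 403, 452, 251, 628 and 143 higher and 124, 210, 583, 460 and 503 lower. With the 8 libraries alone 3030 genes were higher on Day7. On Day12, 6082, 6202 and 6201 were higher and 2943, 2967 and 2854 lower without composition normalization and with limma on log2(FPKM + 1) and log2(FPKM + 0.1), in place of 3923 and 4634.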
